A study of Mus musculus with 48 samples.

Results

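The comparison described here is that of valproic acid (VPA) with saline in the liver of male mice heterozygous for a Wfs1 mutation (HZ). Its members were the 16 arrays whose titles name the HZ genotype, 8 with saline and 8 with VPA, out of 48 arrays in the series. Each array was hybridised with RNA of 1 mouse. HZ mice carry 1 mutant and 1 normal copy of Wfs1 (Wfs1 +/-), the gene of wolframin, a protein in the membrane of the endoplasmic reticulum (ER). The HZ VPA mice received VPA intraperitoneally at 300 mg/kg every day, and the HZ saline mice received the vehicle at 10 mL/kg by the same route. Treatment lasted 12 weeks. The first injection was given at 4 to 6 weeks of age, and the mice were 16 to 18 weeks of age at death. All mice, saline mice included, had been given glucose at 2 g/kg in a tolerance test 24 hours after the last injection and were killed 24 hours after that test. They were kept on a light and dark cycle of 12 hours each, and the time of day at which each mouse was killed is not given in the sources used here. Wild type (WT, Wfs1 +/+) and homozygous mutant (KO, Wfs1 -/-) mice treated in the same way, 8 in each group, are used below only to show where HZ mice differed.

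VPA is an anticonvulsant and mood stabilizer that also inhibits class I histone deacetylases, enzymes that remove acetyl groups from histones. In the liver it is a short branched fatty acid that is broken down in part by mitochondrial beta oxidation. The liver also holds a circadian clock, in which the activators Arntl (BMAL1) and Clock drive the Per and Cry genes, whose proteins in turn repress them. The PAR bZIP factors Dbp, Tef and Hlf carry this rhythm on to genes of detoxification and metabolism. Genes of the clock therefore differ widely between livers taken at different phases of the cycle.

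The arrays gave a value for each of 35556 probesets, which are groups of probes for 1 transcript, on a log2 scale after the RMA procedure. A difference of 1 on this scale is a 2-fold difference. Differences below are VPA minus saline in HZ mice with their standard error (SE), and a probeset was called when its two-sided p from limma was under 0.05 after Benjamini-Hochberg adjustment across the whole array. The number of arrays limits the precision of these differences. Medians of the 8 HZ saline arrays were 6.95 to 7.02 and those of the 8 HZ VPA arrays 6.92 to 6.97, and the correlation between 2 HZ arrays ran from 0.977 to 0.993. The first principal component of the 16 arrays held 25.1% of the variance and placed HZ VPA replicates 5 and 7 on the side of the saline mice. The labels give the HZ saline mice the numbers 14 to 21 and the HZ VPA mice 68 to 75 without saying what the numbers mean, so whatever they record cannot be told apart from treatment.

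The probeset of Wfs1 (chr5:36966104-36988982 in GRCm38) does not check the genotype, since the mutation removes only exons 7 and 8 and single exons were not analysed here. Wfs1 had a median of 8.28 with saline (8.19 to 8.53) and 8.46 with VPA (8.10 to 8.84). The groups overlapped and the difference of 0.17 did not pass the test (SE 0.10, adjusted p = 0.251). Abhd1, a hydrolase gene on the same chromosome as Wfs1, was named after its values were seen because it separates WT from HZ mice. It does not separate HZ from KO mice, whose values ran from 10.54 to 11.23 with saline and from 10.61 to 11.38 with VPA. It lay between 10.07 and 10.71 in 15 HZ mice and between 8.12 and 9.12 in all WT mice, while HZ VPA replicate 7 was at 8.86. That mouse therefore went against its label for this gene. Without it the number of probesets called was 4873. Of 98 genes named below whose HZ values were recomputed without it, all but Hdac8 kept their direction and their side of the threshold. Onecut1, and Mocos, S100a10, Cenpm and Fam83f, named below from the KO mice, were not among the 98.

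Expression differed between HZ VPA and HZ saline liver at 3726 of 35556 probesets (10.5%), of which 1677 were higher (4.72%) and 2049 lower (5.76%). After each array was centred on its median the split was 2011 higher and 1192 lower. Counted with 1 probeset for each of 19938 genes, 2496 genes passed (12.5%), 1090 higher (5.47%) and 1406 lower (7.05%). Most differences were small, with a median size of 0.31 on the log2 scale, and 58 probesets rose and 42 fell by more than 1. The 8 VPA mice and the 8 saline mice did not overlap for 603 probesets (1.7%), 314 higher and 289 lower. Leaving out HZ VPA replicate 1, HZ VPA replicate 4 or HZ saline replicate 5 gave 2072, 2114 and 2328 probesets. With an index of clock gene expression as a covariate, described below, 0 probesets passed in limma and 2533 had an unadjusted p under 0.05.

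Genes of the circadian clock were among those with the largest differences. All 8 measured genes listed as clock repressors passed the test, 7 lower and 1 higher, with a median difference of -1.22 beside -0.03 over all probesets. Of 6 measured genes listed as activators and their nuclear receptors 3 rose and 1 fell (median 0.46). That list also holds the repressor Nfil3, which is among the 3 that rose. All 3 PAR bZIP factors fell (median -1.33). In the plot of clock genes below, 13 of the 17 genes have all HZ VPA mice above or all below the HZ saline mice (603 of 35556 probesets, 1.7%).

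**Figure D1:**
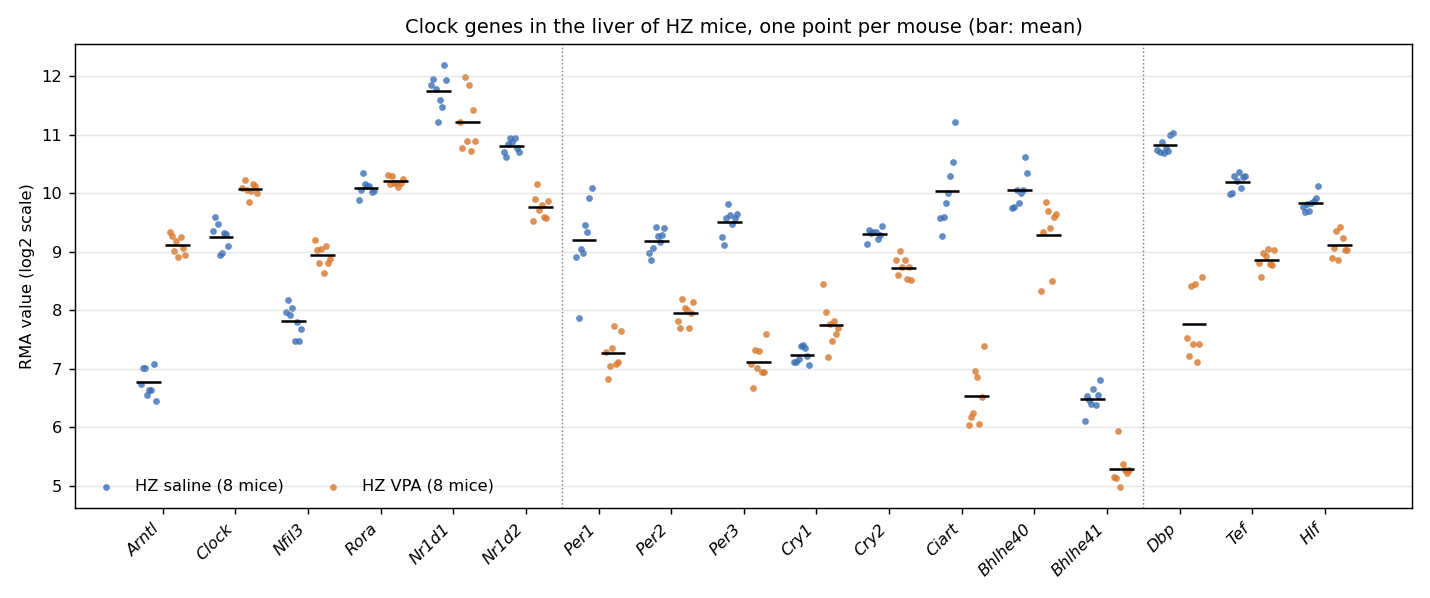
Expression of 17 clock genes in HZ liver (vertical axis: RMA value on the log2 scale), with 1 point per mouse and the mean as a black bar. Genes from left to right are activators and their nuclear receptors with Nfil3, then the other repressors, and PAR bZIP factors. Arntl, Clock and Nfil3 lie higher with VPA (orange) than with saline (blue), while Per1, Per2, Per3, Ciart, Bhlhe41, Dbp, Tef and Hlf lie lower, and Rora and Nr1d1 overlap.

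Among the activators, Arntl (probeset 10556463, chr7:113178471-113314126) encodes the partner with which CLOCK binds DNA. Its value ran from 6.45 to 7.08 with saline (median 6.69) and from 8.90 to 9.33 with VPA (median 9.13). Every VPA mouse was far above every saline mouse, and Arntl rose by 2.36 (5.12-fold, SE 0.23, adjusted p = 3.53e-09). Clock itself ran from 8.94 to 9.59 with saline (median 9.31) and from 9.85 to 10.23 with VPA (median 10.07), again without overlap, and rose by 0.81 (SE 0.10, adjusted p = 1.96e-07). Nfil3, a repressor that competes with the PAR bZIP factors for their sites, rose by 1.13 (SE 0.13, adjusted p = 6.87e-08), from a median of 7.85 (7.47 to 8.17) to 8.96 (8.63 to 9.20). The nuclear receptor Nr1d2 (REV-ERB beta), which represses Arntl, fell by 1.03 (SE 0.12, adjusted p = 5.94e-08), from 10.81 (10.62 to 10.95) to 9.76 (9.53 to 10.16). The groups of its relative Nr1d1 overlapped (11.22 to 12.19 with saline, 10.72 to 11.98 with VPA), and neither its difference of -0.53 (adjusted p = 0.244) nor that of 0.11 for Rora, an activator of Arntl, passed (adjusted p = 0.324).

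Among the repressors, Per3 (probeset 10518781, chr4:150997018-151044707) fell by 2.40 (5.29-fold, SE 0.24, adjusted p = 3.53e-09), from a median of 9.57 (9.11 to 9.81) with saline to 7.04 (6.67 to 7.60) with VPA. Per1, which also responds quickly to hormones, fell by 1.94 (SE 0.36, adjusted p = 0.000351), from 9.19 (7.86 to 10.08) to 7.21 (6.83 to 7.72). Per2 fell by 1.24 (SE 0.21, adjusted p = 0.000102), from 9.22 (8.85 to 9.42) to 7.97 (7.70 to 8.19). In each of these Period genes all VPA mice lay below all saline mice. Ciart (CHRONO), which binds the BMAL1 complex, has a pair of probesets that both fell, with differences of -3.51 (probeset 10373452, adjusted p = 1.12e-07) and -2.55 (probeset 10500272, adjusted p = 3.54e-07), so the size of its fall is uncertain. The first of them ran from 9.26 to 11.21 with saline and from 6.03 to 7.39 with VPA. Bhlhe41 (DEC2) fell by 1.19 (adjusted p = 6.34e-06) and Cry2 by 0.57 (adjusted p = 0.00013), both without overlap of the groups. The calls of the remaining pair lay near the threshold. Bhlhe40 (DEC1) fell by 0.76 (SE 0.23, adjusted p = 0.0269), and its difference was -0.68, -0.62 and -0.65 (adjusted p = 0.0565, 0.0842 and 0.0646) without HZ saline replicate 7 or HZ VPA replicate 1 or 6. Cry1, the only gene of the repressor list that was higher, rose by 0.51 (SE 0.16, adjusted p = 0.0371). Its difference was between 0.42 and 0.51 and its adjusted p between 0.0509 and 0.111 when any 1 of 9 mice was left out. These were HZ saline replicates 1, 2, 3, 7 and 8 and HZ VPA replicates 1, 2, 4 and 6. The adjusted p was highest without HZ VPA replicate 1.

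Of the PAR bZIP factors, Dbp (probeset 10553092, chr7:45705100-45710203) lay in a narrow range of 10.68 to 11.03 in the saline mice (median 10.76) and between 7.11 and 8.57 in the VPA mice (median 7.47). Dbp fell by 3.05 (8.29-fold, SE 0.29, adjusted p = 2.74e-09). Tef fell by 1.33 (SE 0.13, adjusted p = 3.53e-09), from 10.24 (9.99 to 10.36) to 8.86 (8.56 to 9.04). Hlf fell by 0.72 (SE 0.10, adjusted p = 3.7e-06), from 9.82 (9.67 to 10.13) to 9.05 (8.86 to 9.42).

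The promoters of some of these genes hold the short elements that clock proteins are known to bind. The windows searched ran from 250 bases before to 50 bases after each gene's start (RefSeq, GRCm38.p6), on both strands, for the E-box CACGTG of BMAL1 and CLOCK, the D-box TTATGTAA or TTACGTAA of the PAR bZIP factors and NFIL3, the core TAGGTCA of ROR and REV-ERB sites, and the cAMP element TGACGTCA. No motif searched contains another. Of the 17 clock genes 15 had a window. An E-box lay in 5 of the 15 (33.3%), namely Bhlhe41, Ciart, Cry1, Per1 and Tef, against 8.09% of 27025 genes. A D-box lay only in Per3 (6.67% against 1.23%), the ROR core in Arntl and Nfil3 (13.3% against 2.97%), and the cAMP element in Hlf (6.67% against 2.03%). These matches are a description of the letters in the windows. The windows of 3 genes that fell and 2 that rose are shown with the matches in capitals, since Ciart holds 3 E-boxes and Per3 a pair of D-boxes. In Nfil3 the ROR core lies on the other strand and reads TGACCTA.
Ciart promoter, chr3:95882179-95882478, minus strand: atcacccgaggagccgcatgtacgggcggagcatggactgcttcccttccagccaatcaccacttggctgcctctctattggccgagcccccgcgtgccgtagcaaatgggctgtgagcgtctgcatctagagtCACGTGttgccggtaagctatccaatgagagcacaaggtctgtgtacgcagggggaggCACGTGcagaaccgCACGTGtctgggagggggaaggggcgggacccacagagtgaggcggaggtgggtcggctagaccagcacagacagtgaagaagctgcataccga
Per1 promoter, chr11:69098699-69098998, plus strand: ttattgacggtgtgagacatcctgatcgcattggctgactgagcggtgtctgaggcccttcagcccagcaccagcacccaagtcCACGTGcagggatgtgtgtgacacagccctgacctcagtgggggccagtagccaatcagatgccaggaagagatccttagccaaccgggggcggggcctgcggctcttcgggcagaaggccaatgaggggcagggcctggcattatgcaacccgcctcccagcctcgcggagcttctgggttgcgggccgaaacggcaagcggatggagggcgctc
Per3 promoter, chr4:151044616-151044915, minus strand: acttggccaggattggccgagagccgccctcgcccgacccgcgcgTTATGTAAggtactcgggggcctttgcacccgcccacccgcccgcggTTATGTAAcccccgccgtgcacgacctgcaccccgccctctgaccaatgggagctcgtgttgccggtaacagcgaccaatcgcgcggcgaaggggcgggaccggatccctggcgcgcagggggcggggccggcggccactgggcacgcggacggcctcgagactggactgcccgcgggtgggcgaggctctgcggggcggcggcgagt
Arntl promoter, chr7:113207261-113207560, plus strand: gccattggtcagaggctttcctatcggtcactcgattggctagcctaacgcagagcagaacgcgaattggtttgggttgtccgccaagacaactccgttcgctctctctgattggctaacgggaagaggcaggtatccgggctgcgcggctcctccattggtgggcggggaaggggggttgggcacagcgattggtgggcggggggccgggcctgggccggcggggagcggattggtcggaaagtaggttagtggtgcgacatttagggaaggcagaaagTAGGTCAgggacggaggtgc
Nfil3 promoter, chr13:52980990-52981289, minus strand: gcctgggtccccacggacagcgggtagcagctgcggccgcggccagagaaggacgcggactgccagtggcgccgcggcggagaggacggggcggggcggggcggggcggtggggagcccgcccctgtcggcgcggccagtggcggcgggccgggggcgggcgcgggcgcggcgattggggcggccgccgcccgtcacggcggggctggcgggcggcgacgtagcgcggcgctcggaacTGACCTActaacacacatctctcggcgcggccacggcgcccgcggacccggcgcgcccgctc

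Genes with an E-box moved both ways, since Ciart, Per1, Tef and Bhlhe41 fell while Cry1 rose, and Ppp1r3c, one of the 15 largest rises, holds an E-box as well. Windows without any of these elements include those of Dbp and Cry2, which fell as well.

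The index of clock gene expression was the mean of 12 of the genes above, each scaled over the 48 arrays, with Arntl, Clock, Cry1 and Nfil3 counted as positive and the Period genes, PAR bZIP factors, Nr1d1 and Nr1d2 as negative. It ran from -1.41 to -0.68 in HZ saline mice and from 0.45 to 1.25 in HZ VPA mice, so that the groups were fully apart. In WT mice it ran from -0.69 to 0.57 with saline and from 0.63 to 1.68 with VPA, and in KO mice from -0.95 to 0.04 with saline and from -0.77 to 0.38 with VPA. HZ saline mice thus had the lowest median of the 6 groups (-1.04). Since the index and treatment move together in HZ mice, differences at a given index can hardly be estimated, and the SE of 85 of the 98 genes recomputed with it rose by more than 1.5 times with it as a covariate. None of the 98 passed, and 19 of them changed sign, which is stated below beside those genes. Among the clock genes these were Bhlhe40 (0.65), Cry1 (-0.32), Cry2 (0.00) and Per1 (0.91). Cry1 and Per1 are themselves part of the index, so their values with it are partly fixed by construction. Whether the mice were killed at another phase of the day, or had another phase, cannot be told apart.

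Genes known as outputs of the liver clock moved in both directions. Of 26 measured rhythmic outputs, which exclude the genes above, 6 rose and 11 fell (median -0.35), beside 5.47% and 7.05% of all genes. Usp2, a deubiquitinase, ran from 9.22 to 10.77 with saline (median 10.47) and from 6.97 to 8.11 with VPA (median 7.26), and fell by 2.96 (SE 0.31, adjusted p = 1.05e-08). Alas1 (chr9:106233455-106247954), the rate-limiting enzyme of heme synthesis, fell by 2.72 (6.61-fold, SE 0.31, adjusted p = 5.59e-08), from 12.61 (11.79 to 12.82) to 9.96 (8.84 to 10.52). Wee1, a kinase that holds cells before mitosis, fell by 2.00 (SE 0.24, adjusted p = 1.52e-07), from 9.86 (9.08 to 10.09) to 7.60 (7.40 to 8.43). None of these had a VPA mouse inside the saline range. Elovl3, a fatty acid elongase that is more abundant in male liver, rose by 1.91 (SE 0.57, adjusted p = 0.0265), from 10.27 (9.14 to 10.86) to 12.24 (11.78 to 12.41). Without HZ VPA replicate 1 it differed by 1.87 (adjusted p = 0.0512). Fitted together with the clock index, the differences were -0.64 for Usp2, -0.55 for Alas1, -0.79 for Wee1 and 1.07 for Elovl3.

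Other large differences belonged to genes of varied functions, which may be rhythmic as well, as Noct is. Chka, choline kinase alpha, the first enzyme of phosphatidylcholine synthesis, ran from 7.73 to 8.33 with saline and from 9.47 to 10.77 with VPA, and rose by 2.22 (SE 0.22, adjusted p = 3.53e-09). Mfsd2a, a transporter of lysophosphatidylcholine, fell by 2.53 (SE 0.38, adjusted p = 1.98e-05), from 11.37 (10.80 to 11.87) to 8.92 (7.55 to 10.32). Upp2, a liver uridine phosphorylase, fell by 1.69 (SE 0.24, adjusted p = 6.35e-06) and Noct, a rhythmic phosphatase of NADP(H), by 1.47 (SE 0.24, adjusted p = 6.03e-05). Coq10b, which acts in the use of coenzyme Q, fell by 1.42 (adjusted p = 2.64e-05), and Nrg4, a secreted ligand of the ERBB receptors, by 1.48 (adjusted p = 0.000167). Clpx, a subunit of the mitochondrial protease that also activates ALAS in heme synthesis, rose by 1.44 (SE 0.17, adjusted p = 1.09e-07), from 9.54 (9.34 to 9.95) to 10.87 (10.52 to 11.69). Avpr1a, the vasopressin receptor of hepatocytes, rose by 1.28 (SE 0.13, adjusted p = 1.05e-08), from 8.85 (8.41 to 9.37) to 10.14 (9.87 to 10.46). Tubb2a, a beta tubulin, rose by 1.71 (adjusted p = 4.63e-05) and Tnfaip2, a gene induced by tumour necrosis factor, by 1.45 (adjusted p = 5.94e-08). Except in Nrg4, where 6 of 8 VPA mice lay below all saline mice, the groups of these genes did not overlap. With the clock index as a covariate the sign turned for Mfsd2a (0.06), Noct (0.16), Nrg4 (0.08) and Tubb2a (-0.22).

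**Figure D2:**
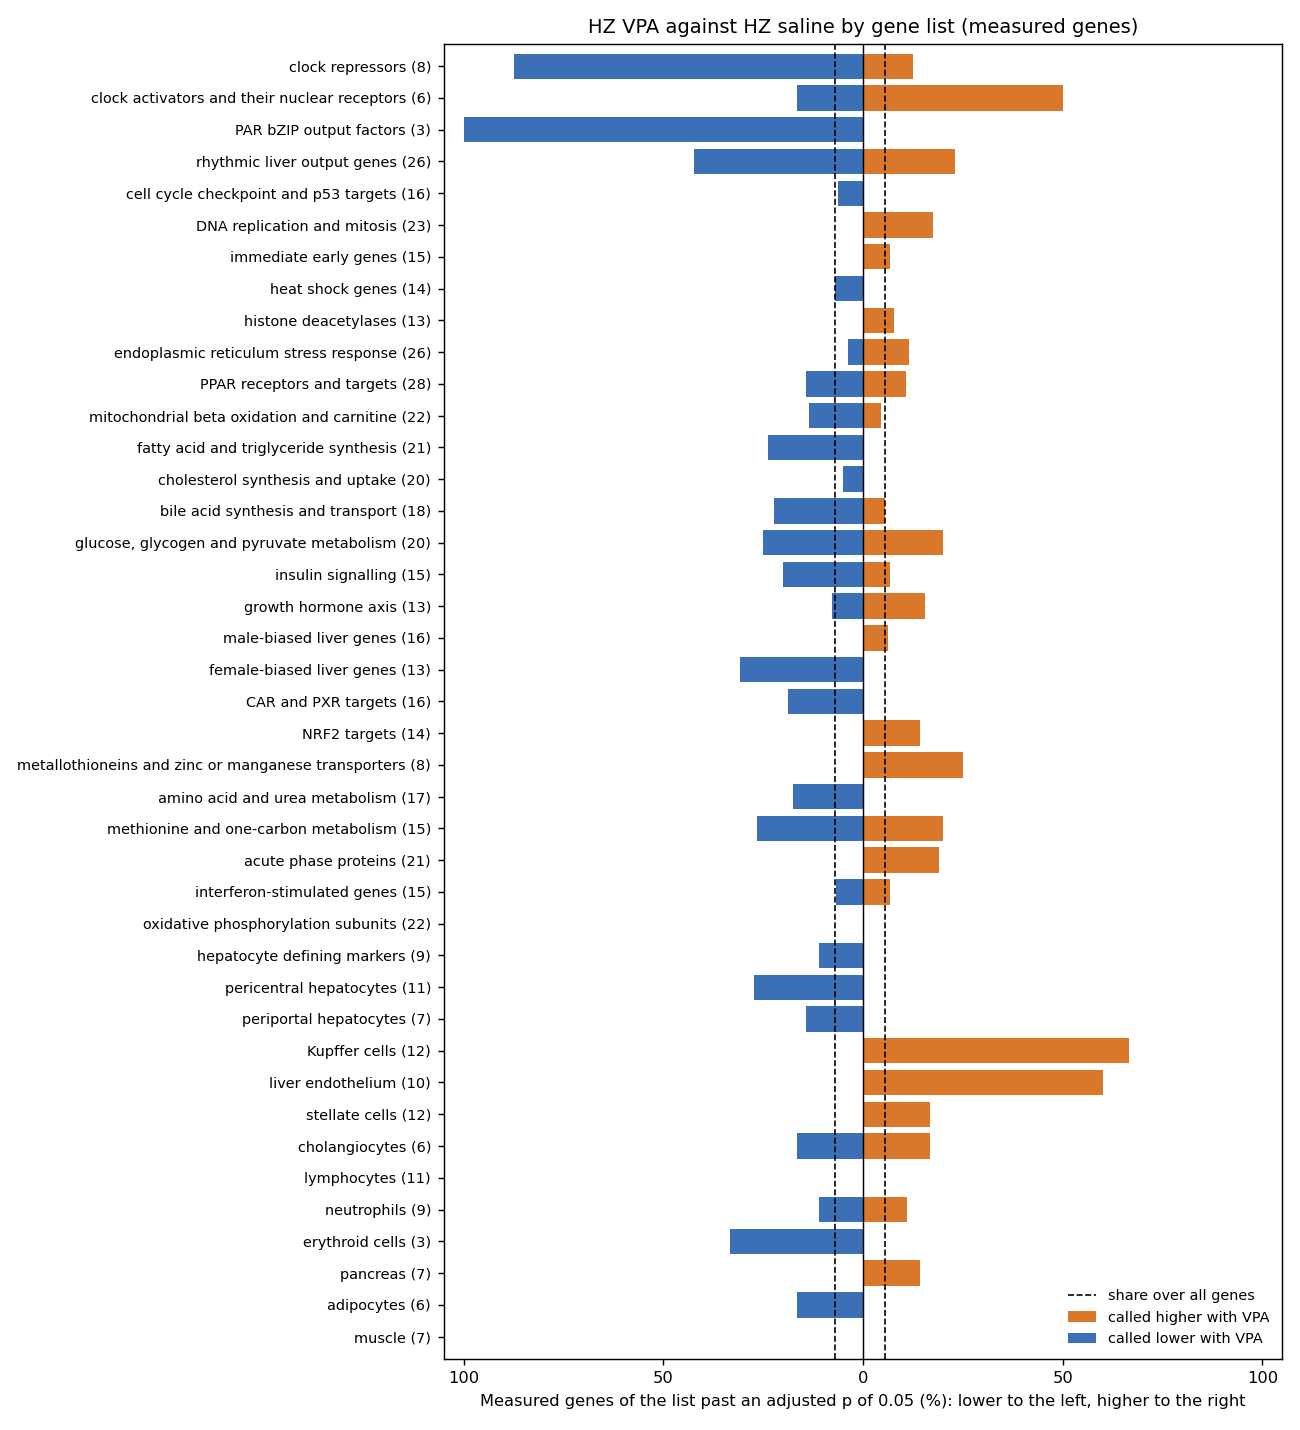
Share of the measured genes of each list that passed an adjusted p of 0.05 in HZ VPA against HZ saline (horizontal axis, %), lower to the left in blue and higher to the right in orange, with the number of measured genes in brackets. The dashed lines mark the shares over all genes, 5.47% higher and 7.05% lower, which the bars of clock genes, Kupffer cells (8 of 12) and endothelium (6 of 10) pass.

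Markers of liver macrophages and endothelium were higher with VPA. Of 12 measured markers of Kupffer cells, the macrophages resident in the liver, 8 rose (median 0.69), against 5.47% of all genes, and the other 4 did not pass. Adgre1 (F4/80, chr17:57358581-57483529) ran from 7.41 to 8.27 with saline (median 7.85) and from 8.24 to 10.25 with VPA (median 8.65), with 7 of 8 VPA mice above all saline mice, and rose by 0.99 (SE 0.22, adjusted p = 0.00282). C1qb and C1qc, subunits of the first complement component, rose by 0.89 (SE 0.23, adjusted p = 0.0125) and by 0.79 (SE 0.19, adjusted p = 0.00603). Cd5l, a macrophage protein that inhibits apoptosis, rose by 0.86 (SE 0.19, adjusted p = 0.00303), from 8.97 (8.76 to 9.65) to 9.92 (9.52 to 10.38). The mean over the 12 markers ran from 8.09 to 8.87 in HZ saline mice and from 8.78 to 9.33 in HZ VPA mice. The number called was between 6 and 8 whichever of the 16 mice was left out. In bulk tissue, more cells of a type and more RNA per cell cannot be told apart.

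Of 10 measured endothelial markers 6 rose (median 0.35), between 5 and 7 with 1 mouse left out. The share called higher over all genes was 5.47%. Clec4g, a lectin of the sinusoidal endothelium, rose by 0.51 (SE 0.14, adjusted p = 0.0153), while a dim second probeset of the gene did not pass (-0.08). Fcgr2b, an inhibitory Fc receptor, rose by 0.47 (adjusted p = 0.00137) and Kdr, the main receptor of vascular endothelial growth factor, by 0.37 (SE 0.08, adjusted p = 0.00181). For Kdr the groups did not overlap, from 8.94 (8.90 to 9.19) to 9.39 (9.24 to 9.55). Among 12 stellate cell markers 2 rose, the matrix proteins Dcn by 0.35 (adjusted p = 0.00138) and Reln by 0.30 (adjusted p = 0.0145). No marker of lymphocytes (of 11) or muscle (of 7) passed in limma, and 3 and 1 of them had an unadjusted p under 0.05. Cxcl13, a chemokine of B cells, rose by 1.38 (SE 0.39, adjusted p = 0.019), from 7.69 (6.61 to 8.32) to 8.71 (8.44 to 10.27), and Wfdc17, an antiprotease of macrophages, by 1.34 (SE 0.31, adjusted p = 0.00402).

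The other groups set a context for these markers. The mean of the Kupffer cell markers ran from 8.01 to 9.26 in WT mice with saline, from 8.00 to 9.45 in WT mice with VPA, from 8.37 to 9.21 in KO mice with saline and from 8.60 to 9.25 in KO mice with VPA. HZ saline mice had the lowest median of the 6 groups (8.40), and HZ VPA mice the highest (9.07), next to 9.02 in WT VPA mice and 8.94 in WT saline mice. For the endothelial markers the median was 9.43 in HZ saline mice and between 9.67 and 9.75 in the other 5 groups. With the clock index as a covariate the differences in HZ mice were 0.94 for Adgre1, 1.08 for C1qb, 0.52 for Cd5l, 0.71 for Clec4g and 0.42 for Kdr, of which none passed.

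**Figure D3:**
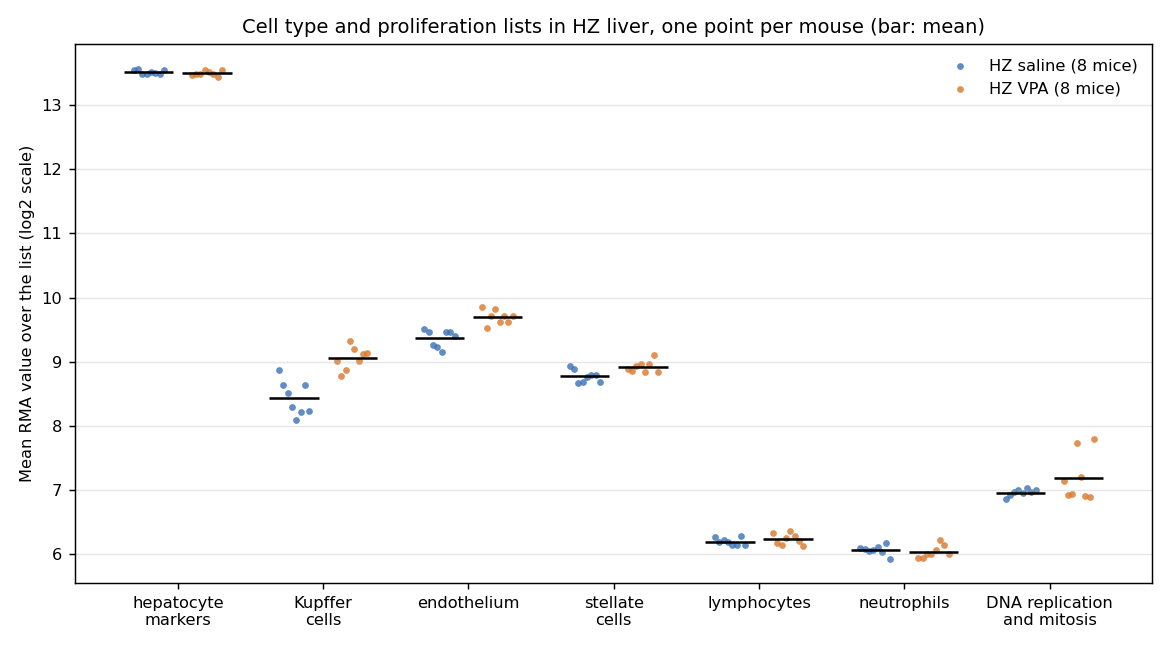
Mean RMA value (vertical axis, log2 scale) over the measured genes of 7 lists in HZ mice, with 1 point per mouse, blue for saline and orange for VPA, and the group mean as a black bar. Kupffer cell and endothelial markers lie higher with VPA, hepatocyte markers lie together, and 2 VPA mice (7.74 and 7.80) stand above the rest in DNA replication and mitosis.

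Markers that define hepatocytes showed that the tissue was liver in all 16 mice. The mean of the 9 measured was 13.48 to 13.57 with saline and 13.43 to 13.54 with VPA. Over all genes 12.5% passed, 5.47% higher and 7.05% lower, and 8 of the 9 markers did not pass. The exception was Cebpa, a transcription factor of mature hepatocytes, which fell by 0.41 (SE 0.09, adjusted p = 0.00158), from 11.22 (11.15 to 11.43) to 10.84 (10.68 to 10.94). Of 11 genes of pericentral hepatocytes, those around the central vein, 3 fell (median -0.19), beside 7.05% of all genes. Among them were the glutamate transporter Slc1a2, by 1.08 (SE 0.18, adjusted p = 5.9e-05), and ornithine aminotransferase Oat, by 0.64 (SE 0.12, adjusted p = 0.000798). Of 7 periportal genes 1 fell, the aldehyde dehydrogenase Aldh1b1 by 0.40 (adjusted p = 0.0215). Of 6 measured markers of bile duct cells 1 rose and 1 fell (median -0.13), and 5 of the 6 had a negative difference. Sox9, a transcription factor of these cells and of hepatocytes beside them, rose by 0.65 (SE 0.11, adjusted p = 0.000235), from 7.84 (7.60 to 7.94) to 8.48 (7.88 to 8.84).

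Genes of DNA replication and mitosis were higher in some VPA mice. Of 23 measured 4 rose (median 0.27), beside 5.47% of all genes. The number was 2 without HZ VPA replicate 4, 3 without HZ VPA replicate 8 and 6 without HZ VPA replicate 7. Pcna, the sliding clamp of replication, rose by 0.55 (SE 0.11, adjusted p = 0.000919), from 9.83 (9.39 to 10.07) to 10.32 (10.20 to 10.71), and a second probeset of the gene rose by 0.55 as well. Mcm7, a subunit of the replicative helicase, rose by 0.46 (SE 0.09, adjusted p = 0.000713), with 7 of 8 VPA mice above all saline mice. Mcm3, another subunit, rose by 0.46 (adjusted p = 0.0151), a call lost without HZ VPA replicate 4 (0.37, adjusted p = 0.054). The mean over the list was 7.74 in HZ VPA replicate 4 and 7.80 in HZ VPA replicate 8, between 6.90 and 7.20 in the other 6 VPA mice, and between 6.86 and 7.03 in the saline mice. Of 16 genes of cell cycle checkpoints and p53 targets 1 passed, and of 15 immediate early genes 1, beside 12.5% of all genes. The first was the polo-like kinase Plk3, which fell by 1.56 (SE 0.32, adjusted p = 0.00158) and differed by 0.78 with the clock index as a covariate. The other was the transcription factor Egr1, which rose by 1.45 (SE 0.36, adjusted p = 0.00877), from 7.47 (6.90 to 8.60) to 9.27 (8.32 to 10.20).

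Among the genes of lipid metabolism that passed, some were higher and others lower. Of 28 measured receptors and targets of the peroxisome proliferator-activated receptors (PPAR) 3 rose and 4 fell (median -0.09), and of 22 genes of beta oxidation and carnitine 1 rose and 3 fell (median -0.08). Over all genes the shares were 5.47% higher and 7.05% lower, and the shares of this and the following lists can be read against them in the plot of gene lists. Pdk4 (chr6:5483351-5496278), a kinase that switches off pyruvate dehydrogenase, ran from 7.30 to 8.44 with saline (median 8.03) and from 8.92 to 10.18 with VPA (median 9.83), and rose by 1.81 (3.51-fold, SE 0.34, adjusted p = 0.000448). Ppard, the PPAR delta receptor, rose by 0.69 (SE 0.15, adjusted p = 0.00307), from 8.38 (8.21 to 8.57) to 9.00 (8.75 to 9.57), and Crot, which moves medium-chain acyl groups to carnitine in peroxisomes, by 0.44 (adjusted p = 0.0236). In contrast, the peroxisomal thioesterases Acot3 and Acot4 fell by 1.57 (SE 0.36, adjusted p = 0.0037) and by 1.00 (SE 0.21, adjusted p = 0.00139), and Acsm5, a mitochondrial medium-chain acyl-CoA synthetase, by 0.39 (adjusted p = 0.000989). Of 21 genes of fatty acid and triglyceride synthesis 5 fell (median 0.02). Thrsp (SPOT14), a lipogenic protein, fell by 1.22 (SE 0.33, adjusted p = 0.0139), with only 1 VPA mouse below all saline mice, Lpin2, a phosphatidate phosphatase, by 0.79 (adjusted p = 0.000336), and Dgat2, which makes triglyceride, by 0.30 (adjusted p = 0.00549). Of 20 measured genes of cholesterol synthesis and uptake 1 passed, the sterol oxidase Msmo1, which fell by 0.57 (SE 0.14, adjusted p = 0.00788). With the clock index as a covariate the sign turned for Pdk4 (-0.28), Ppard (-0.04), Lpin2 (0.04) and Dgat2 (0.07).

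Genes of bile acid synthesis and transport that passed were lower but for 1. Of 18 measured 1 rose and 4 fell (median -0.10), beside 5.47% and 7.05% of all genes. The 1 rise was thus near the share over all genes. Cyp7a1, the rate-limiting enzyme of bile acid synthesis, ran from 12.59 to 13.47 with saline (median 13.16) and from 11.52 to 12.52 with VPA (median 11.87), without overlap, and fell by 1.17 (SE 0.26, adjusted p = 0.00303). Akr1d1, a later enzyme of the pathway, fell by 0.43 (adjusted p = 0.011) and Nr1h4 (FXR), the bile acid receptor, by 0.40 (SE 0.07, adjusted p = 0.000335). Abcb11, the export pump for bile salts, rose by 0.34 (SE 0.08, adjusted p = 0.00303), from 12.49 (12.15 to 12.63) to 12.80 (12.69 to 12.92).

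Of 20 genes of glucose, glycogen and pyruvate metabolism 4 rose and 5 fell (median -0.19), beside 5.47% and 7.05% of all genes. Beside Pdk4, Ppp1r3c, a scaffold that directs protein phosphatase to glycogen, rose by 1.28 (SE 0.23, adjusted p = 0.000202), from 9.06 (8.69 to 9.50) to 10.48 (9.29 to 11.14). Gys2, liver glycogen synthase, fell by 0.61 (SE 0.12, adjusted p = 0.000683), and the fructose transporter Slc2a5 fell by 1.24 (SE 0.18, adjusted p = 6.34e-06), from 8.92 (8.47 to 9.21) to 7.48 (7.11 to 8.10). Of 15 genes of insulin signalling 1 rose and 3 fell, among them the transcription factor Foxo3, which fell by 0.64 (adjusted p = 0.00143). Amino acid genes that passed were lower. Of 17 measured 3 fell (median -0.15), among them Asl, an enzyme of the urea cycle, by 0.50 (SE 0.12, adjusted p = 0.00579) and the alanine aminotransferase Gpt2 by 0.50 (adjusted p = 0.00494). In methionine and one-carbon metabolism, where 3 of 15 rose and 4 fell, the mitochondrial folate enzyme Mthfd2 rose by 0.84 (SE 0.17, adjusted p = 0.00115) and Gnmt, a methyltransferase that consumes S-adenosylmethionine, fell by 0.39 (adjusted p = 0.00993). With the clock index as a covariate the sign turned for Gys2 (0.13), Foxo3 (0.24) and Gpt2 (0.01).

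Nuclear receptors and hormone-dependent genes of the liver also differed. Of 16 measured genes of the xenobiotic receptors CAR and PXR and their targets 3 fell (median -0.23), beside 7.05% of all genes. Both receptors were among them, Nr1i3 (CAR) by 0.72 (SE 0.14, adjusted p = 0.000486), from 12.13 (11.99 to 12.45) to 11.45 (11.23 to 11.64), and Nr1i2 (PXR) by 0.42 (adjusted p = 0.00505). With the clock index as a covariate their differences were 0.07 and 0.08. Of 13 genes more abundant in female liver 4 fell (median -0.16), namely Acot3, the monooxygenase Fmo2 by 1.06 (SE 0.30, adjusted p = 0.0185), the organic anion transporter Slco1a4 by 1.06 (SE 0.22, adjusted p = 0.00125) and the transcription factor Tox by 0.70 (adjusted p = 0.00785). Of 16 male-biased genes 1 passed, Elovl3. Of 13 measured genes of the growth hormone axis 2 rose and 1 fell (median 0.02). The transducers Stat5a and Stat5b rose by 0.36 (adjusted p = 0.0017) and by 0.44 (adjusted p = 0.00295). Onecut1, a transcription factor of hepatocytes, fell by 1.16 (SE 0.35, adjusted p = 0.0261). Without HZ VPA replicate 1, 4 or 8 or HZ saline replicate 1, 0 genes of this list were called lower, so the call of Onecut1 was lost.

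Genes of stress responses, the acute phase and metal transport are set here beside 12.5% of all genes that passed, 5.47% higher and 7.05% lower. Of 26 genes of the ER stress response 3 rose and 1 fell (median 0.08). Eif2ak3 (PERK), a sensor of unfolded proteins, rose by 0.34 (SE 0.09, adjusted p = 0.0136) and Manf, a secreted ER protein, by 0.43 (adjusted p = 0.0171), which was 0.38 with an adjusted p of 0.0506 without HZ VPA replicate 1. Herpud1, a factor of ER-associated degradation, fell by 0.50 (adjusted p = 0.0191) and differed by 0.53 with the clock index as a covariate. Of 14 targets of the oxidative stress factor NRF2 2 rose, while over the list 4 differences were positive and 10 negative (median -0.07). Gclc, a subunit of the rate-limiting enzyme of glutathione synthesis, rose by 0.58 (SE 0.10, adjusted p = 0.000128) and heme oxygenase Hmox1 by 0.56 (SE 0.14, adjusted p = 0.00748). Of 21 acute phase proteins 4 rose, while over the list 11 differences were positive and 10 negative (median 0.02). Among the 4 were the fibrinogen chains Fga, by 0.52 (SE 0.06, adjusted p = 3.54e-07), and Fgg, by 0.22 (SE 0.04, adjusted p = 0.000614), both without overlap of the groups. Of 8 metallothioneins and metal transporters 2 rose, while over the list 4 differences were positive and 4 negative (median -0.07). The manganese exporter Slc30a10 (chr1:185454848-185468762) rose by 1.21 (SE 0.14, adjusted p = 5.59e-08), from 8.40 (8.04 to 8.80) to 9.57 (9.48 to 9.75), and Slc39a8, an importer of zinc and manganese, by 0.31 (adjusted p = 0.00298). No subunit of oxidative phosphorylation (of 22 measured, median 0.04) passed in limma, and 0 had an unadjusted p under 0.05.

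Histone deacetylases were examined because VPA inhibits class I members. Of 13 measured 1 passed, beside 12.5% of all genes. This was the class II enzyme Hdac5, which rose by 0.26 (SE 0.07, adjusted p = 0.0171). The class I enzymes differed by 0.10 for Hdac1 (SE 0.09, adjusted p = 0.462), 0.26 for Hdac2 (SE 0.16, adjusted p = 0.263), 0.17 for Hdac3 (SE 0.07, adjusted p = 0.0819) and 0.24 for Hdac8 (SE 0.10, adjusted p = 0.0999), none of which passed. Hdac8 passed without HZ VPA replicate 5 (0.30, adjusted p = 0.0368) or replicate 7 (0.29, adjusted p = 0.0403).

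**Figure D4:**
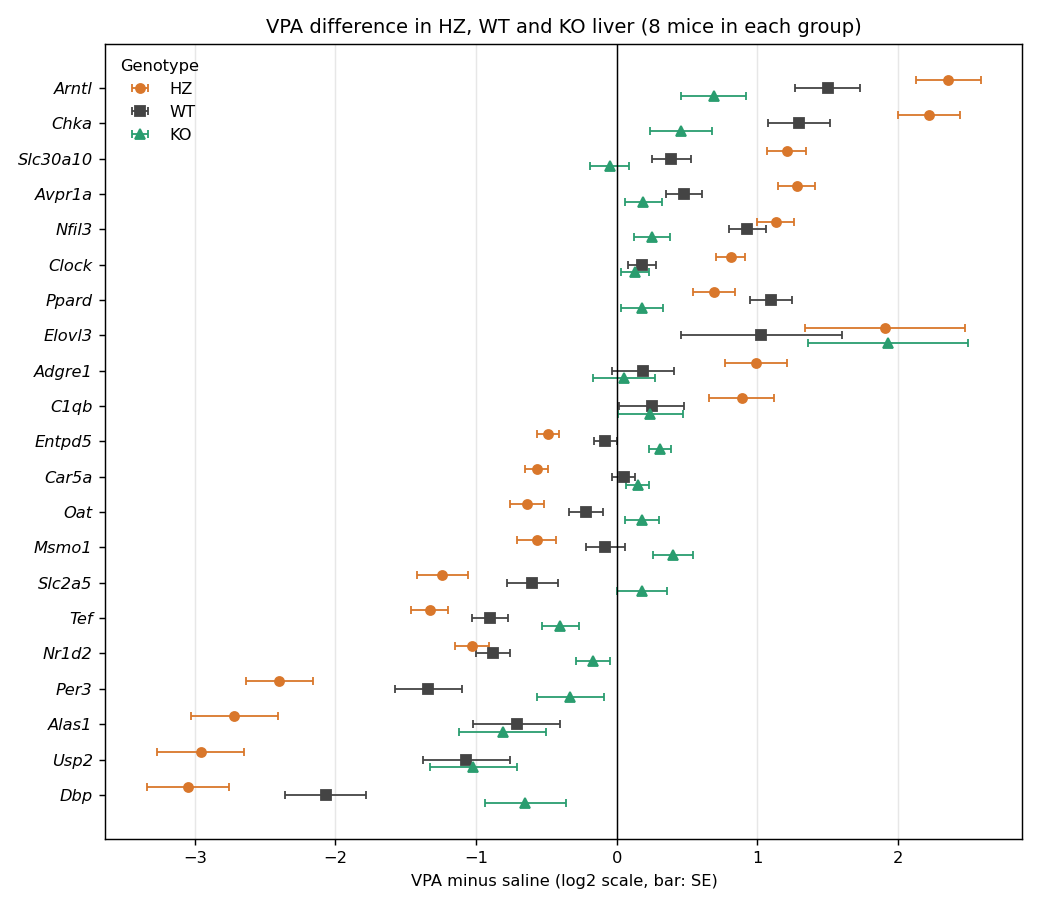
VPA minus saline (horizontal axis, log2 scale) for 21 genes in HZ (orange circles), WT (grey squares) and KO mice (green triangles), with SE bars from 1 fit over 48 arrays. HZ values lie farthest from 0 for most genes shown, for example -3.05 for Dbp against -2.07 in WT and -0.65 in KO mice, while Ppard is higher in WT (1.10) than in HZ mice (0.69). The genes were taken from those named by their HZ difference or by the test of HZ against KO mice. That choice by itself favours large HZ values.

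The same contrast in the other genotypes, with 8 mice in each group and none shared, called 25 probesets in WT mice (0.0703%) and 4 in KO mice (0.0112%). At an unadjusted p under 0.05 the numbers were 10371 in HZ, 1973 in WT and 2547 in KO mice. Of the 25 probesets called in WT mice 24 were also called in HZ mice, all in the same direction, among them Arntl, Dbp, Per3, Tef, Nr1d2, Nfil3, Chka and Ppard. Of the 4 called in KO mice, named here after their values were seen, Mocos was also called in HZ mice, and S100a10, Cenpm and Fam83f were not. In HZ mice S100a10 differed by 0.25 (limma adjusted p = 0.152), Cenpm by -0.02 (adjusted p = 0.933) and Fam83f by 0.29 (adjusted p = 0.058). Of the 3726 probesets called in HZ mice, 87.3% had the same sign in WT mice and 76.1% in KO mice, beside 65.5% and 61.6% of all probesets. The median size of their differences was 0.31 in HZ, 0.09 in WT and 0.08 in KO mice. These probesets were picked by their HZ values, which by itself makes the HZ size the largest. The 3 sizes therefore do not compare the VPA effect between genotypes. The 3 contrasts share 1 estimate of the spread for each probeset.

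A larger number of calls in HZ mice does not by itself show that the VPA effect differed between genotypes, so the difference of effects was tested. Between HZ and WT mice 0 probesets passed in limma, while 2754 had an unadjusted p under 0.05. Between HZ and KO mice 76 passed (0.214%), with 37 higher and 39 lower effects in HZ mice. Entpd5, a nucleotidase of the ER, had an effect of -0.49 in HZ, -0.08 in WT and 0.31 in KO mice (HZ minus KO -0.80, SE 0.11, adjusted p = 0.000211). Slc30a10 had effects of 1.21 in HZ, 0.39 in WT and -0.05 in KO mice (1.26, SE 0.19, adjusted p = 0.00106). For Car5a, the mitochondrial carbonic anhydrase of the liver, they were -0.57, 0.05 and 0.15 (-0.73, SE 0.12, adjusted p = 0.00225), and for Slc2a5 -1.24, -0.60 and 0.18 (-1.42, SE 0.25, adjusted p = 0.00397). Clock genes were among those that differed, with 1.67 for Arntl (SE 0.33, adjusted p = 0.0121) and -2.40 for Dbp (SE 0.41, adjusted p = 0.00257). The difference of the Kupffer cell marker Adgre1 did not pass against KO (0.94, SE 0.31, adjusted p = 0.199) or WT mice (0.81, adjusted p = 0.578).

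HZ saline mice also stood apart from WT saline mice, at 108 probesets (0.304%), while HZ VPA and WT VPA mice differed at 1 (0.00281%), the probeset of Abhd1. These comparisons share the HZ mice with the VPA contrast, so their values are given only side by side. Clock was lower in HZ than in WT saline mice by 0.68 (-0.68, adjusted p = 0.000193) and rose with VPA by 0.81 in HZ mice. Slc30a10 was lower by 0.78 (-0.78, adjusted p = 0.00335) and rose by 1.21. Alas1 was higher in HZ saline mice by 1.59 (adjusted p = 0.00987) and fell with VPA (-2.72), and Usp2 was higher by 1.70 (adjusted p = 0.00637) and fell with VPA (-2.96). The plot of 6 genes in all groups shows these positions mouse by mouse.

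**Figure D5:**
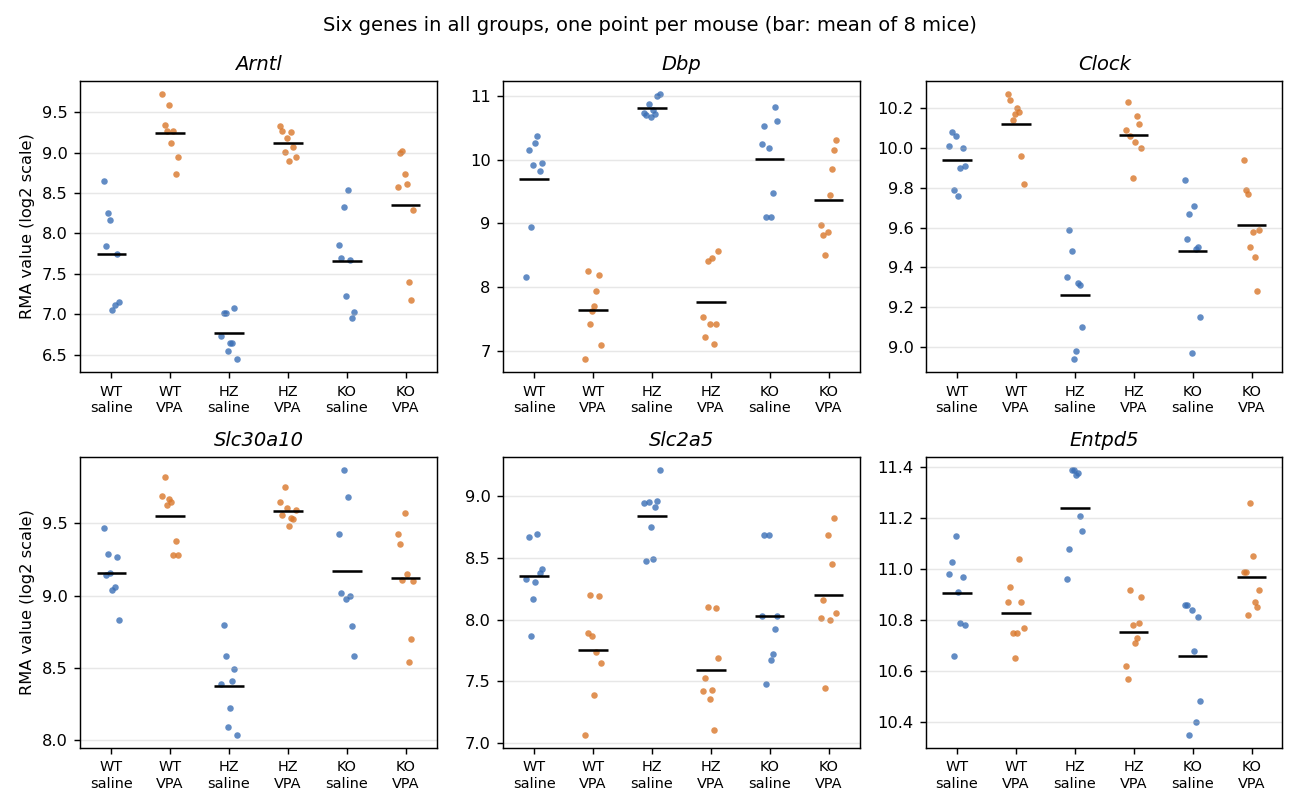
Expression of Arntl, Dbp, Clock, Slc30a10, Slc2a5 and Entpd5 (vertical axes: RMA value on the log2 scale) in WT, HZ and KO mice given saline (blue) or VPA (orange), with 1 point per mouse and the mean of 8 mice as a bar. The HZ saline group has the lowest mean of the 6 groups for Arntl, Clock and Slc30a10 and the highest for Dbp, Slc2a5 and Entpd5.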

How the data were processed

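Liver RNA of 48 male mice (300 ng each, RNA integrity number 7 to 9) was hybridised to Affymetrix Mouse Gene 1.0 ST arrays. The authors deposited log2 values from RMA (Affymetrix Expression Console 1.1.2800.28061, per the submitters' processing notes), which brings all arrays to a common distribution, so that a shift shared by all genes cannot be seen. All 48 arrays were fitted in limma 3.58.1 (R 4.3.3) with 1 mean for each of the 6 groups, without filter or block, and contrasts were tested two-sided with Benjamini-Hochberg adjustment over 35556 probesets at 0.05. The fit was tested on simulated data. Each sample is 1 mouse, and litter, cage and order of killing are not given for each mouse. The p-values set a difference against the spread between mice within a group, estimated together over the 6 groups. GEO's platform annotation gave 1 symbol to 21789 probesets, several to 1621 and none to 12146, and only those with 1 symbol were named. A gene was represented by its brightest such probeset. Positions and promoters are RefSeq's (GRCm38.p6). Members and the 41 lists were chosen with earlier results of these data known. Genes were named by rule: the 15 largest rises and falls, all clock list members, up to 4 called members of each other list, Wfs1, Hdac1, Hdac2, Hdac3 and Hdac8, and the 5 most significant genes in each test between genotypes, of which not all are printed. Alternatives were each mouse left out, array weights, other filters and thresholds, median centring, HZ arrays alone, a replicate block and the clock index as covariate. Plots used matplotlib 3.10.9 and tables pandas 2.3.3 (Python 3.11.15).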

Additional observations from a re-analysis of the deposited data

Results flagged for a closer look

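For each of 196 groups of 8 HZ mice, gene by gene, the gap of the outermost mouse to its neighbour was taken as a share of the group's range. In 9 groups this share was above the critical value of Dixon's test. Chance alone gives about 1 in 20, so 9 of 196 is no more than chance would give. In HZ VPA replicate 5 Adgre1 was at 10.25 and the next mouse at 8.86 (share 0.69), and Cxcl13 was at 10.27 with the next at 9.15 (0.61). In HZ VPA replicate 6 Acot3 was highest (7.96, next 7.22, share 0.63) and Acsm5 lowest (11.17, next 11.32, share 0.56). Single mice also stood apart for Bhlhe41 in HZ VPA replicate 3 (5.94, next 5.37, share 0.59), Usp2 in HZ VPA replicate 8 (8.11, next 7.47, share 0.56) and Gpt2 in HZ VPA replicate 1 (10.72, next 11.15, share 0.55). Among saline mice, Alas1 was lowest in replicate 2 (11.79, next 12.53, share 0.72) and Pcna lowest in replicate 1 (9.39, next 9.77, share 0.56).

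For 22 of the named genes the VPA effect differed between HZ and KO mice in limma, given here as HZ minus KO. Over all 35556 probesets 76 passed this test (0.214%). The named genes were chosen in part by their HZ difference and by this same test, so their number is raised by the choice. It was higher in HZ mice for Chka (1.75), Arntl (1.67), Slc30a10 (1.26), Tnfaip2 (1.13), Clpx (1.12), Avpr1a (1.09), Nfil3 (0.87) and Clock (0.68). It was lower in HZ mice for Dbp (-2.40), Per3 (-2.07), Usp2 (-1.95), Alas1 (-1.92), Wee1 (-1.67), Upp2 (-1.47), Slc2a5 (-1.42), Bhlhe41 (-1.04), Msmo1 (-0.97), Tef (-0.93), Nr1d2 (-0.86), Oat (-0.81), Entpd5 (-0.80) and Car5a (-0.73). Adjusted p ran from 0.000211 for Entpd5 to 0.0427 for Upp2.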

How the results depend on the processing

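Of 98 genes named in the results and recomputed under each alternative, which leave out Abhd1, Onecut1, Mocos, S100a10, Cenpm and Fam83f, 91 were called, and 86 of these kept the call with each of the 16 HZ mice left out in turn, the exceptions being Bhlhe40, Cry1, Elovl3, Manf and Mcm3. No direction changed in those fits. The number of probesets called ran from 2072 (without HZ VPA replicate 1) to 4873 (without HZ VPA replicate 7) for VPA against saline in HZ mice. It ran from 0 to 3 for the difference between HZ and WT effects, and from 42 to 109 for that between HZ and KO effects, with 42 when HZ saline replicate 4 was left out, 44 for HZ saline replicate 5, and 45, 49 and 50 for HZ VPA replicates 1, 4 and 6. In the order HZ, HZ against WT and HZ against KO, array weights gave 6754, 4 and 317, an adjusted p under 0.01 gave 1028, 0 and 14, and an unadjusted p under 0.001 gave 1761, 86 and 286. Restricting the test to probesets with 1 symbol gave 2 and 143 for the differences between genotypes, and 1 probeset per gene gave 141 against KO. HZ arrays alone, trend and robust estimation, median centring and a filter on dim probesets moved no total by over 1.5 times, though centring moved the lower calls in HZ mice from 2049 to 1192.

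The replicate block gave 4933, 5 and 108. Whether the replicate numbers pair the mice is not stated, and these values do not settle it. Of 8 pairs of the same number 3 had correlated deviations over 0.1 (mean 0.053, from -0.106 to 0.252, other pairs -0.007). Of the saline arrays 2 were closest to their own number. The 98 genes kept their calls under the block.

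The clock index as covariate gave 0, 0 and 0 in limma (2533, 1982 and 2342 at an unadjusted p under 0.05), and of the 98 genes 19 changed sign, none past the threshold. Their values were 0.65 for Bhlhe40, -0.32 for Cry1, 0.00 for Cry2, 0.07 for Dgat2, 0.24 for Foxo3, 0.01 for Gpt2, 0.13 for Gys2, 0.53 for Herpud1, 0.04 for Lpin2, 0.06 for Mfsd2a, 0.16 for Noct, 0.08 for Nr1i2, 0.07 for Nr1i3, 0.08 for Nrg4, -0.28 for Pdk4, 0.91 for Per1, 0.78 for Plk3, -0.04 for Ppard and -0.22 for Tubb2a. Cry1 and Per1 are part of the index, so their values are partly fixed by construction. The index separates treatment in HZ mice, so these fits have little power, and the cause was not tested.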

Other observations

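The mean of 7 skeletal muscle genes was 7.30 in HZ VPA replicate 3 and between 6.32 and 6.71 in the other HZ mice.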
